A study of Mus musculus with 6 samples.

Results

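The transcripts of 10 chemokine ligands were followed in the mouse pancreas: Cxcl1, Cxcl2, Cxcl5, Cxcl9, Cxcl10, Cxcl12, Cxcl13, Cxcl14, Cxcl16 and Cx3cl1. They were picked by gene name, as the rows whose Ensembl identifier belongs to one of these CXC or CX3C ligands, and each of the 10 names had a row among the 22556 genes listed. The study asked how polyI:C, a synthetic double-stranded RNA, alters acute pancreatitis (AP). The 6 pancreas samples, from wild type C57BL/6 mice labelled as 8 weeks of age, formed 3 groups of 2: saline mice, AP mice given repeated injections of caerulein, a secretagogue that overstimulates acinar cells, and mice that had received polyI:C before caerulein (polyI:C + AP). The methods describe male mice, with saline injected in place of polyI:C as the control. No label says that the 2 samples of a group are from separate mice, so a group name stands for its 2 samples. No mice given polyI:C alone are among these samples, so an effect of polyI:C is seen here on top of AP.

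Chemokines are small secreted proteins that guide leukocytes along concentration gradients through G protein-coupled receptors. CXC ligands with a glutamate-leucine-arginine motif before the first cysteines (Cxcl1, Cxcl2 and Cxcl5 in the mouse) act on Cxcr2 and draw neutrophils, and NF-κB drives their transcription downstream of IL-1, TNF and IL-17. Cxcl9 and Cxcl10 are induced by interferons and draw T and NK cells through Cxcr3. Cxcl12, Cxcl13 and Cxcl14 are each made constitutively in some tissues and are called homeostatic. Cxcl16 and Cx3cl1 are made as membrane-bound proteins that the sheddases Adam10 and Adam17 release. In pancreatitis, injured acinar cells and resident leukocytes are known sources of the neutrophil-attracting ligands.

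Levels are given in TPM, a relative abundance per transcript length in which every library has the same sum over the listed genes. Low TPM values fall on steps worth 1 read, and from these steps the reads behind each value were worked out. The libraries held an estimated 4129693 and 4972742 reads in saline mice, 8701407 and 11125101 in AP mice and 11072944 and 13577957 in polyI:C + AP mice, so the saline group was the shallowest. A change was called where limma's Benjamini-Hochberg adjusted p did not exceed 0.05 and the fold was 2 or more on the log2(TPM + 0.5) scale, which understates changes of low genes. Of the 10 ligands, 7 reached a mean of 1 TPM and were tested, and Cxcl2, Cxcl5 and Cxcl10 did not. In bulk tissue, fewer cells of a type and less RNA per cell cannot be told apart. The labelled tissue was checked against its markers. The acinar transcription factor gene Bhlha15 was at 326 to 391 TPM in saline mice and 46.4 to 53.6 TPM in AP mice. Of 13 acinar markers listed, 5 had a row and were tested. Of these, limma called 3 lower in AP than in saline mice, Bhlha15 among them, and 1 was higher without overlap. The islet gene Ins1 lay between 282 and 656 TPM in the 6 libraries.

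The promoter sequences of 4 ligands are shown because they hold the recognition letters of the transcription factors named above. RefSeq windows (GRCm38.p6, 250 bases before to 50 after the start) were at hand for 8 of the 10 ligands, and Cxcl5 and Cxcl16 had no entry. They were searched on both strands for the NF-κB letters (GGG, any 3 bases, TTCC), those of the interferon-stimulated response element, ISRE (GAAA, any 2 bases, GAAA), and those of the STAT element GAS (TTC, any 3 bases, GAA). The stretches run 5′ to 3′ on the strand of the gene, all before the start, and capitals mark the matches; where a match on one strand overlaps a match on the other, both are in 1 run of capitals.
Cxcl1, chr5:90891135-90891214, plus strand: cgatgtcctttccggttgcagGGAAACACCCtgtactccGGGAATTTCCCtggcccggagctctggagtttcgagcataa
Cxcl2, chr5:90903784-90903863, plus strand: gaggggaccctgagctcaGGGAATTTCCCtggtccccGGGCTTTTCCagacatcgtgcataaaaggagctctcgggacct
Cxcl10, chr5:92348975-92349109, minus strand: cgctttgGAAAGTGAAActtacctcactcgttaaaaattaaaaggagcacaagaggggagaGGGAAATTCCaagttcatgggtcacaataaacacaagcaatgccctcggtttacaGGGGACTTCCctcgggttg
Cxcl14, chr13:56296692-56296751, minus strand: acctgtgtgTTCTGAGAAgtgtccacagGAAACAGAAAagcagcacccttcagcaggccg

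The neighbours Cxcl1 and Cxcl2 shared the run GGGAATTTCCC, which begins 71 bases before the start of Cxcl1 and 97 bases before that of Cxcl2, and each window held a further NF-κB match, at 89 and 78 bases. In Cxcl10, NF-κB matches lay 159 and 104 bases before the start and the ISRE letters at 213 bases. The NF-κB letters occurred in 5.56% of the 32851 RefSeq promoter windows, the ISRE letters in 3.44% and the GAS letters in 8.30%. Cxcl14 held the ISRE letters at 172 bases and the GAS letters at 191 bases. None of the 3 spellings was found in the windows of Cxcl9, Cxcl12, Cxcl13 and Cx3cl1, which says no more than that these letters are not in these windows.

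Of the 10 ligands, 6 lie on chromosome 5 (GRCm38). Cxcl5 (90759360 to 90761624), Cxcl1 (90891241 to 90893115) and Cxcl2 (90903871 to 90905938) are on the plus strand in one cluster, with the platelet ligand genes Ppbp and Pf4 between Cxcl5 and Cxcl1. Cxcl9 (92321347 to 92328079) and Cxcl10 (92346638 to 92348889) sit side by side on the minus strand, 18558 bases apart, and Cxcl13 (95956951 to 95961068) lies further on. Cxcl12 is on chromosome 6 (117168535 to 117181367), Cx3cl1 on chromosome 8 (94772009 to 94782427), Cxcl16 on chromosome 11 (70453983 to 70459984) and Cxcl14 on chromosome 13 (56288643 to 56296551).

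The order of the ligands differed between the groups. For this comparison between genes the TPM values were put on merged exon length, since the spacing of the low values showed that exons of different transcripts had been counted more than once in the deposited lengths, by 2.57 times for Cxcl2 and 2.17 times for Cxcl10. On that scale Cxcl12 was the most abundant ligand in saline mice, at 12.7 ± 0.279 TPM (SD, n = 2), above Cxcl14 at 8.39 ± 4.04, Cxcl13 at 6.02 ± 7.48 and Cxcl16 at 4.53 ± 1.28, of which neighbours in the order overlapped. Cx3cl1 followed at 1.76 ± 0.968 TPM, and Cxcl9, Cxcl10, Cxcl1, Cxcl2 and Cxcl5 had means between 0 and 0.506 TPM, each overlapping the next. In AP mice Cxcl16 led with 71.1 ± 7.21 TPM, and Cxcl1, eighth in saline mice, stood at 18.0 ± 6.06 TPM, overlapping Cxcl14 at 18.8 ± 2.78. Both were above Cxcl12 at 8.92 ± 3.14 TPM without overlap, while Cxcl13, at 22.8 ± 26.0 TPM, overlapped all 3. Cxcl9 was the lowest of the 10 in AP mice, at 0.785 ± 0.452 TPM. In polyI:C + AP mice Cxcl16 led again with 68.1 ± 1.65 TPM, Cxcl9 had reached 7.17 ± 1.38 TPM beside Cxcl1 at 6.94 ± 2.27 and Cxcl12 at 6.44 ± 1.71, values that overlapped, and Cxcl2 was last at 0.0733 ± 0.104 TPM. All values from here on are TPM as deposited.

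**Figure D1:**
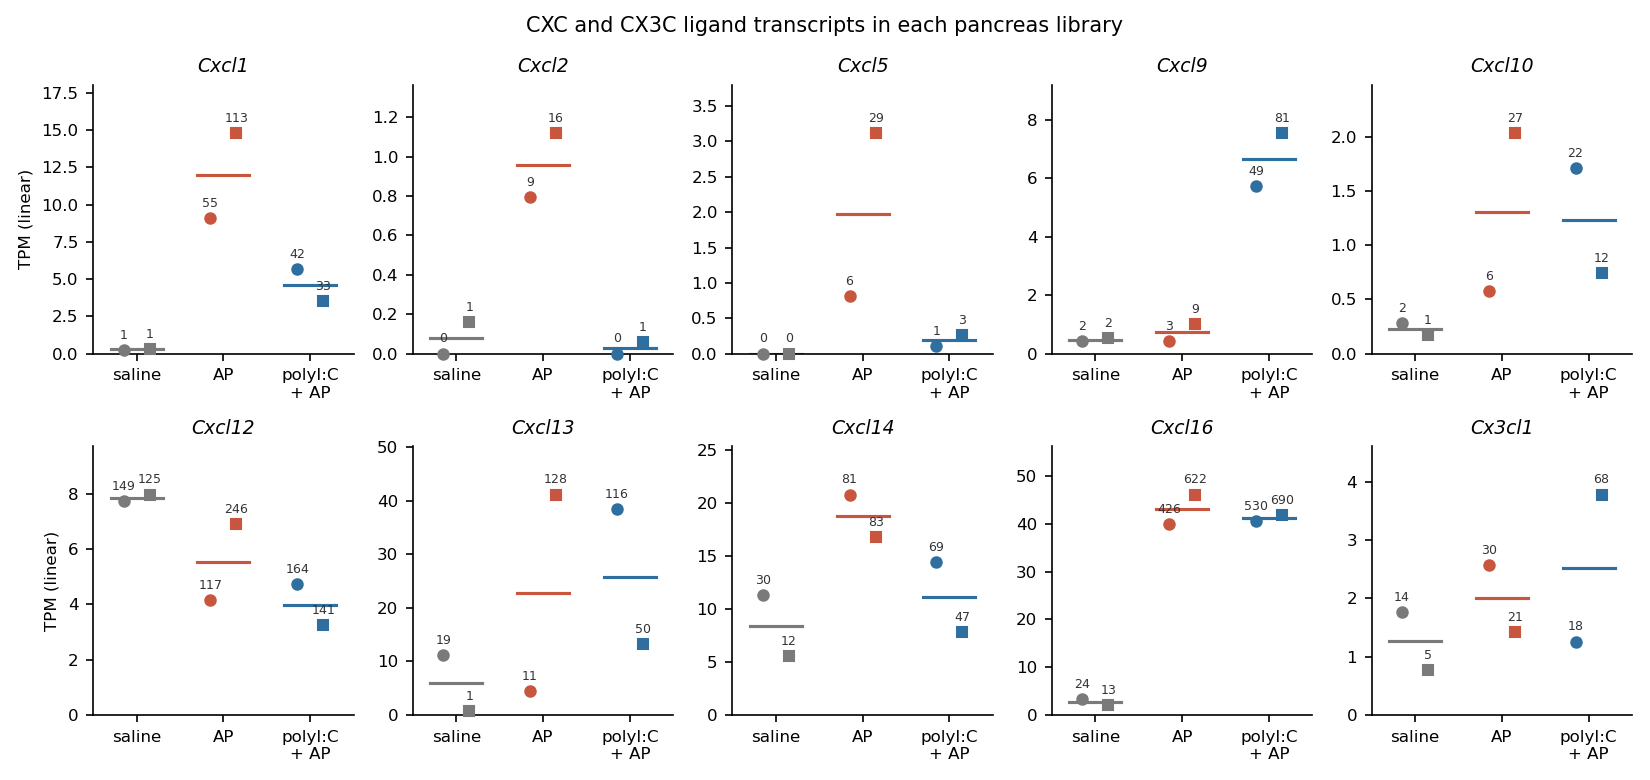
TPM of each ligand (linear axes from 0, each panel with its own range) in the 2 libraries of the saline, AP and polyI:C + AP groups, with replicate 1 as a circle, replicate 2 as a square, the group mean as a line and the number of reads behind the value printed above it. Cxcl1, Cxcl2 and Cxcl5 are highest in AP, Cxcl9 in polyI:C + AP, and Cxcl16 is at 39.9 to 46.1 TPM in all 4 caerulein libraries.

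Cxcl1 and Cxcl16 rose in AP mice among the 7 tested ligands. These 2 calls compare with 18.2% of the 16814 tested genes called higher in AP than in saline mice, and no ligand was called lower, against 4.03% of all genes. The median log2 fold change was 1.19 over the 7 ligands and 0.45 over all tested genes. Of the 7 tested ligands, 3 were higher in both AP libraries than in both saline libraries and 1, Cxcl12, was lower, as were 52.6% and 16.4% of tested genes. PolyI:C pretreatment gave 1 call against AP mice, Cxcl9, where 0.440% of tested genes were called higher and 0.404% lower, and of the 7 tested ligands 1 was higher without overlap between the groups (27.7% of tested genes) and 2 were lower (22.1%). Against saline mice, polyI:C + AP mice had Cxcl1, Cxcl9 and Cxcl16 called higher (16.9% of tested genes) and no ligand called lower (2.97%), and of the 7 tested ligands 4 were higher without overlap (54.4% of tested genes) and 1 was lower (14.0%). After median-of-ratios scaling Cxcl13 overlapped in that comparison. These 3 comparisons share their libraries pairwise, so AP values enter both the effect of caerulein and that of polyI:C.

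**Figure D2:**
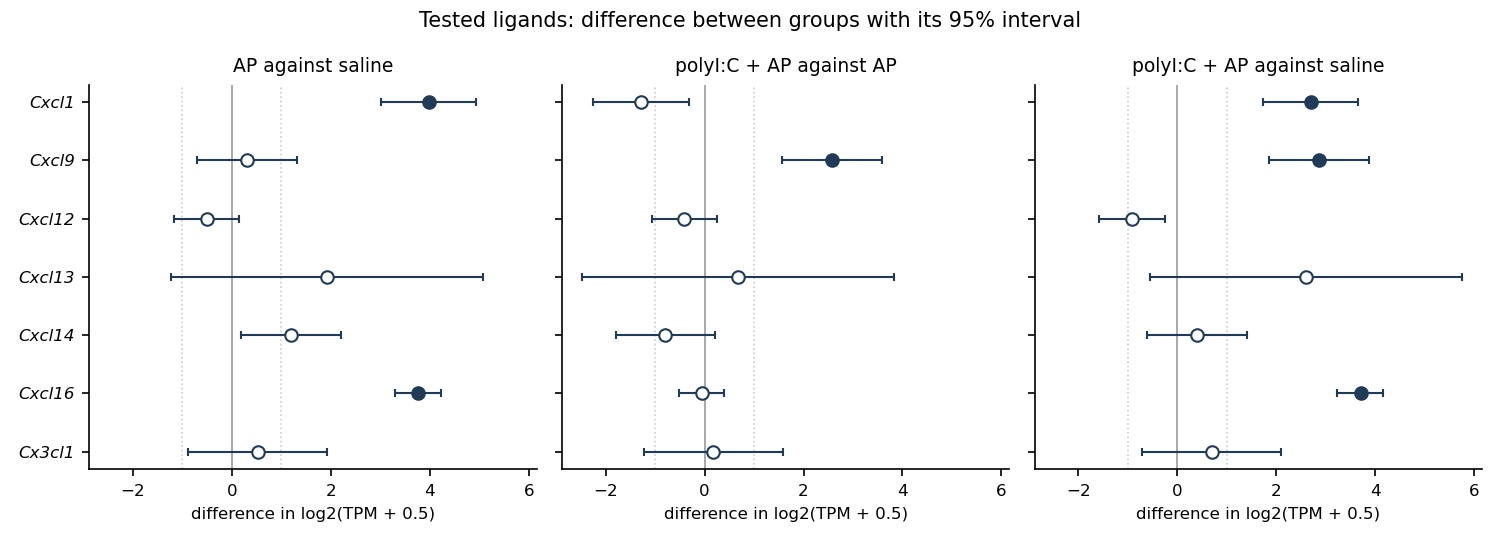
Differences in log2(TPM + 0.5) between groups for the 7 tested ligands, as points with 95% intervals from limma in 3 panels, one per comparison; filled points passed the threshold and dotted lines mark a fold of 2 in either direction. Cxcl1 and Cxcl16 are filled in AP against saline, Cxcl9 alone is filled in polyI:C + AP against AP, and the interval of Cxcl13 spans 0 in each panel.

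The 3 neutrophil-attracting ligands had their highest values in AP mice. Cxcl1, the main murine neutrophil chemoattractant with Cxcl2, was at 0.243 and 0.298 TPM in saline mice, 9.12 and 14.8 TPM in AP mice and 5.67 and 3.54 TPM in polyI:C + AP mice. The 3 groups did not overlap, and the polyI:C + AP mice lay between the others. In AP against saline mice the log2 fold change of Cxcl1 was 3.98 ± 0.40 (SE, limma, adjusted p = 5.5e-04). Since each saline value rested on 1 read, the ratio of pooled reads per depth is loosely bounded, at 46.0 with a 95% interval of 12.5 to 383 that covers counting error only. PolyI:C + AP mice differed from AP mice by -1.28 ± 0.40 on the log2 scale (adjusted p = 0.229 in limma, 95% interval -2.25 to -0.31), which did not pass the threshold, and remained above saline mice with a log2 fold change of 2.70 ± 0.40 (adjusted p = 0.00261). Leaving out any 1 library kept Cxcl1 past the threshold in both comparisons with saline mice, and none of the 17 alternatives took it past the threshold in polyI:C + AP against AP mice, where its adjusted p ran from 0.0654 to 0.748.

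Cxcl2 and Cxcl5 were seen almost solely in AP mice but in few reads. Cxcl2 was at 0 and 0.159 TPM in saline mice, 0.794 and 1.12 TPM in AP mice and 0 and 0.0571 TPM in polyI:C + AP mice, from 1, 25 and 1 reads per group. Its AP values were above all 4 others, with a ratio of pooled reads of 13.7 to saline (95% interval 2.24 to 562, counting error) and of 0.0327 for polyI:C + AP against AP mice (0.000796 to 0.20). Cxcl2 shares 69 of its 2259 stretches of 100 bases with Cxcl3, a gene not analysed here, so reads from the shared part are uncertain. Cxcl5, a ligand known from epithelial cells and platelets, had no read in either saline library, 0.817 and 3.12 TPM in AP mice and 0.111 and 0.265 TPM in polyI:C + AP mice. Its 35 reads in AP mice put it at least 6.38-fold higher than saline mice, taking 3 reads over the saline group (0.330 TPM) as the floor, and the 4 reads in polyI:C + AP mice gave a ratio of 0.0934 to AP mice (0.0241 to 0.261, counting error). Neither gene reached the mean of 1 TPM, and in a fit without that filter their log2 fold changes in AP against saline mice were 1.33 (Cxcl2, adjusted p = 0.0791 in limma) and 2.13 (Cxcl5, adjusted p = 0.0538), and in polyI:C + AP against AP mice -1.45 (adjusted p = 0.279) and -1.68 (adjusted p = 0.375).

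The platelet CXC ligands that neighbour Cxcl5 also had their highest values in AP mice. Ppbp was at 0 and 0.778 TPM in saline, 4.32 and 3.42 TPM in AP and 0.705 and 1.40 TPM in polyI:C + AP mice, and rose in AP mice (log2 fold change 2.44 ± 0.77, adjusted p = 0.0425 in limma), a call that 6 of 16 alternatives kept. Pf4, which macrophages as well as megakaryocytes express, was at 27.2 and 4.96, then 69.9 and 39.8, then 7.02 and 7.59 TPM, called by limma neither in AP against saline mice (adjusted p = 0.0566, past the threshold in 4 of 17 alternatives) nor in polyI:C + AP against AP mice (adjusted p = 0.15), where voom called it lower (-2.81, adjusted p = 0.0317). The summed level of 8 of 8 macrophage markers was 360 to 527 TPM in saline, 2288 to 2538 TPM in AP and 389 to 478 TPM in polyI:C + AP mice. Of the 8, 6 were called higher in AP mice, and Csf1r, Itgam and Lyz2 were called lower after polyI:C. Most of the sum in saline and AP mice was Lyz2, at 444 and 307, then 1891 and 2118, then 203 and 119 TPM. Cd14 stayed high after polyI:C, at 15.7 and 13.9, then 218 and 222, then 216 and 209 TPM. The part of macrophages in the ligand values was not tested. Cxcl15 was seen in 2 reads of 1 AP library.

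Of the neutrophil markers, 3 rose in AP mice, and the receptor of these ligands was not called. Cxcr2 was at 0.260 and 0 TPM in saline mice, 0.622 and 1.12 TPM in AP mice and 0.942 and 0.230 TPM in polyI:C + AP mice, from at most 16 reads a library, and the AP and polyI:C groups overlapped. It was under the filter, and without it the log2 fold change in AP against saline mice was 1.13 (limma, adjusted p = 0.22). Of 12 neutrophil markers listed, 9 had a row and 7 were tested, and 3 rose in AP mice: Retnlg (log2 fold change 3.41 ± 0.67, adjusted p = 0.00716 in limma), S100a9 (2.52 ± 0.75, adjusted p = 0.0354) and the collagenase Mmp8 (2.46 ± 0.64, adjusted p = 0.0217). The call of S100a9 was made in 7 of 17 alternatives and that of Retnlg in 14. S100a8, the partner of S100a9, overlapped between saline (6.26 and 0 TPM) and AP mice (6.18 and 9.40 TPM), and Ltf (lactoferrin) was at 0.303 and 0, then 0.207 and 0.0546 TPM. The median over the 7 was 2.15, beside 0.45 for all tested genes. Summed over the list, the level was 5.80 to 17.9 TPM in saline, 63.4 to 72.4 TPM in AP and 22.9 to 44.5 TPM in polyI:C + AP mice, and Elane, an enzyme of neutrophil granules, was at 0 in both saline and both AP libraries and at 0.415 and 1.32 TPM in polyI:C + AP mice. limma called 0 of 7 in polyI:C + AP against AP mice, with 2 at an unadjusted p under 0.05 and 1 called by voom, and Retnlg stood there at 7.53 and 1.5 TPM after 35.4 and 28 TPM in AP mice (adjusted p = 0.103). How far neutrophils contribute to the ligand values was not tested.

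Most genes of the NF-κB, IL-1 and IL-17 axis rose in AP mice. Of 17 tested, limma called 14 higher than in saline mice and none lower, beside 18.2% and 4.03% of all tested genes, and voom called 10. The median log2 fold change was 1.44 (0.45 over all tested genes). Nfkb2, which encodes the NF-κB subunit p52, rose by a log2 fold change of 3.23 ± 0.10 (adjusted p = 1.3e-05 in limma), and its partner Relb by 2.87 ± 0.13 (adjusted p = 4.4e-05). The inducing cytokines Tnf (3.04 ± 0.60, adjusted p = 0.00746) and Il1b (2.74 ± 0.58, adjusted p = 0.00959) rested on fewer reads, 2 and 1 in the saline group. In polyI:C + AP against AP mice limma called 0 genes of the list, with 6 at an unadjusted p under 0.05 and 2 called by voom, and the median was -0.30. Without overlap 13 of the 17 were lower there and 3 higher, beside 22.1% and 27.7% of all tested genes. Nfkb2 differed there by -0.11 (95% interval -0.34 to 0.12) and Cxcl1 by -1.28 (-2.25 to -0.31), and the difference between the genes was not tested.

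**Figure D3:**
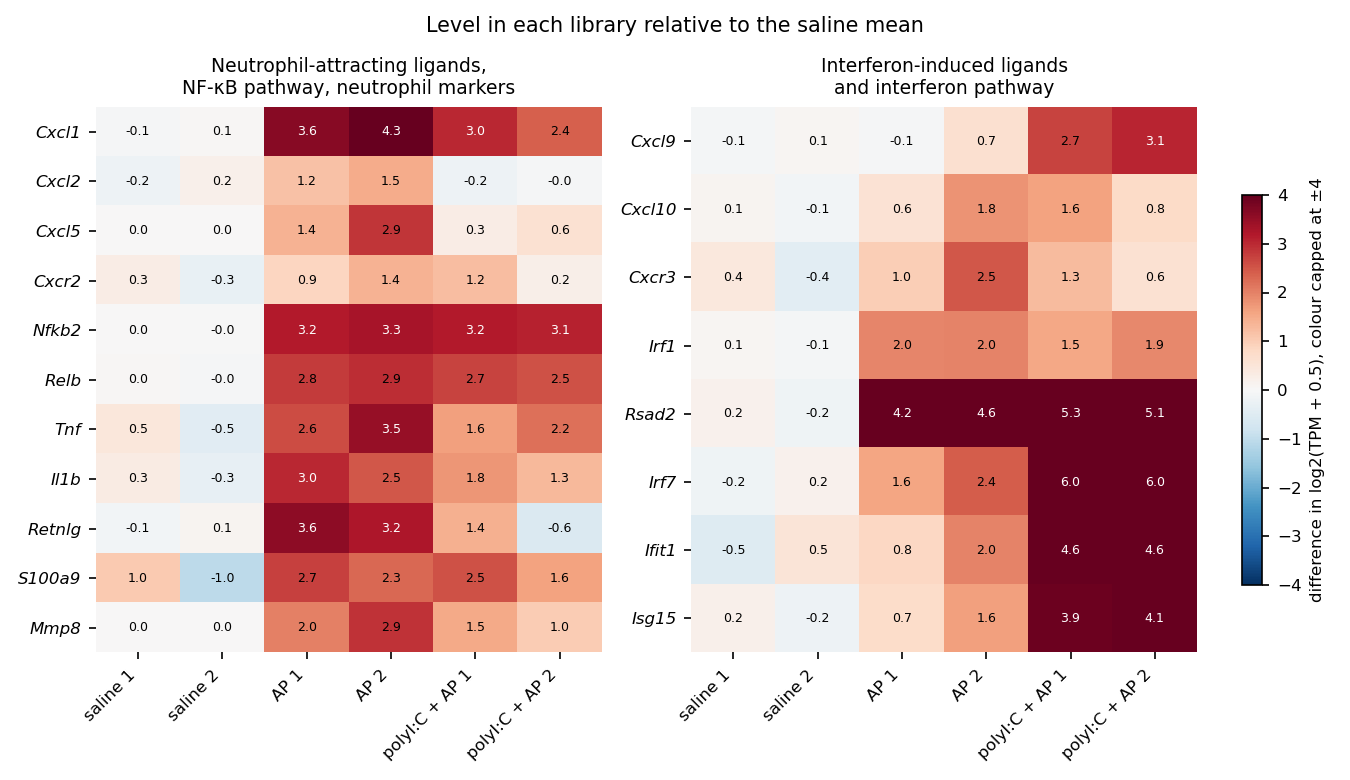
Level in each of the 6 libraries relative to the saline mean, as a difference in log2(TPM + 0.5) printed in each cell (red above, blue below, colour capped at ±4), for the neutrophil-attracting ligands with their receptor, NF-κB pathway genes and neutrophil markers on the left, and the interferon-induced ligands with their receptor and interferon pathway genes on the right. Cxcl1 is deepest in the AP columns, while Cxcl9 darkens in the polyI:C + AP columns with Irf7, Ifit1 and Isg15 and Cxcl10 does not.

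Of the 2 interferon-induced ligands, Cxcl9 alone was higher in both polyI:C + AP libraries than in both AP libraries. The difference between the 2 ligands was not tested. Cxcl9, which T cells follow through Cxcr3 and which interferon gamma induces above all, was at 0.420 and 0.517 TPM in saline mice, 0.431 and 1.02 TPM in AP mice and 5.74 and 7.54 TPM in polyI:C + AP mice. Saline and AP libraries overlapped, and both polyI:C + AP libraries were above the other 4. Cxcl9 rose in polyI:C + AP mice against AP mice, with a log2 fold change of 2.57 ± 0.42 (limma, adjusted p = 0.0497), just inside the threshold, and against saline mice with 2.87 ± 0.42 (adjusted p = 0.00245). In AP against saline mice its difference was 0.30 ± 0.42 (adjusted p = 0.618). The call against AP mice was made in 2 of 16 alternatives and ended when any 1 of the 6 libraries was left out, with adjusted p between 0.088 and 0.437 and log2 fold changes of 2.22 to 2.93. The reads behind it were 12 in AP and 130 in polyI:C + AP mice, a ratio per depth of 8.86 (95% interval 4.90 to 17.6, counting error). Against saline mice the call was lost without the second polyI:C + AP library (2.69, adjusted p = 0.0542).

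Cxcl10, the neighbour of Cxcl9 that type I interferon also induces, stayed under the mean of 1 TPM. It was at 0.280 and 0.172 TPM in saline mice, 0.574 and 2.04 TPM in AP mice and 1.72 and 0.744 TPM in polyI:C + AP mice, from 3, 33 and 34 reads. The AP and polyI:C values overlapped, and both groups were above saline mice in each library. Pooled reads gave a ratio of 6.02 for AP to saline mice (95% interval 1.89 to 30.7, counting error) and of 0.842 for polyI:C + AP to AP mice (0.506 to 1.40). Without the filter the log2 fold change was 1.19 for AP against saline mice (limma, adjusted p = 0.231) and 0.01 in polyI:C + AP against AP mice (95% interval -1.54 to 1.55), a width that does not show the values to be alike. The level of Cxcl9 relative to Cxcl10, on merged exon length, was 0.373 and 0.249 in AP mice and 1.66 and 5.04 in polyI:C + AP mice, and 0.747 and 1.49 in saline mice. These ratios do not overlap between AP and polyI:C + AP mice, while a two-sided exact permutation test of 2 against 2 cannot go below p = 0.33. Exons of Cxcl10 overlap Art3 on the opposite strand, which was at 0.865 to 1.76 TPM, and the strand setting of the counting is not given in the sources used here.

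Their receptor Cxcr3, a marker of activated T and NK cells, was at 0.396 and 0 TPM in saline, 0.811 and 3.21 TPM in AP and 1.10 and 0.526 TPM in polyI:C + AP mice, with no comparison called. T and NK cell markers were near the detection limit: 7 of 8 had a row, 1 was tested, and their sum was 6.02 to 6.67 TPM in saline, 1.81 to 5.41 TPM in AP and 3.56 to 5.46 TPM in polyI:C + AP mice. Of 7 markers, the NK cell receptor gene Klrb1c, singled out after its values were seen, was at 0 in both saline libraries, 0.192 and 0.0760 TPM in AP mice and 0.705 and 0.934 TPM in polyI:C + AP mice, from 2, 1, 9 and 15 reads in the caerulein libraries. It was under the filter and was not called without it (limma, adjusted p = 0.436 against AP and 0.069 against saline mice). Nkg7, a granule gene of NK and T cells, was at 1.76 and 0.433 TPM in saline, 0.481 and 0.190 TPM in AP and 0.980 and 0.779 TPM in polyI:C + AP mice, and the T cell receptor gene Cd3d at 2.8 and 1.53, then 0.638 and 1.34, then 0.866 and 0.275 TPM. The part of NK cells in the Cxcl9 level was not tested.

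Most interferon pathway genes rose in AP mice, and limma called 4 higher again with polyI:C. Of 16 tested genes, limma called 15 higher in AP than in saline mice (18.2% of all tested genes) and voom 10. The median log2 fold change was 1.5, beside 0.45 over all tested genes. The limma calls of Isg15 and Ifit1 were made in 7 and 5 of 17 alternatives. In polyI:C + AP against AP mice limma called 4 of the 16 higher and 0 lower, beside 0.440% and 0.404% of all tested genes (median 0.92, beside 0.04 over all tested genes). There voom called 7, and 10 stood at an unadjusted p under 0.05 in either direction. Without overlap 10 were higher there and 4 lower, beside 27.7% and 22.1% of all tested genes. The 4 lower were Irf1 and the receptor genes Ifnar1 (-0.32), Ifngr1 (-0.18) and Ifngr2 (-0.11), while Ifnar2 and Mx1 overlapped. The 4 called were Irf7, the master regulator of type I interferon genes (4.01 ± 0.28, adjusted p = 0.00371 in limma), Ifit1 (3.23 ± 0.45, adjusted p = 0.0312), Isg15 (2.81 ± 0.36, adjusted p = 0.0247) and Ifit3. These calls were made in 12 (Irf7), 6 (Ifit1) and 7 (Isg15) of 17 alternatives. Irf7 went from 0.604 and 0.878 TPM in saline to 3.15 and 6.14 TPM in AP and 79.0 and 79.2 TPM in polyI:C + AP mice. The antiviral gene Rsad2 had most of its rise in AP mice already (4.39 ± 0.18, adjusted p = 3.4e-05) and differed by 0.84 with polyI:C (adjusted p = 0.0934). Irf1, through which interferon gamma acts on chemokine genes, was at 28.3 and 29.0 TPM in AP mice and 21.1 and 27.7 TPM in polyI:C + AP mice. Irf1 differed between these groups by -0.24 ± 0.17 (adjusted p = 0.62).

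limma called 0 of the 3 homeostatic ligands in each of the 3 comparisons; at an unadjusted p under 0.05 stood Cxcl14 in AP and Cxcl12 in polyI:C + AP, each against saline mice, and voom called the latter. Cxcl12, the stromal ligand that retains Cxcr4-bearing cells in tissues, was at 7.73 and 7.97 TPM in saline mice, 4.15 and 6.89 TPM in AP mice and 4.74 and 3.24 TPM in polyI:C + AP mice. It was the sole ligand lower in both libraries of each caerulein group than in both saline libraries, also after median-of-ratios scaling. The difference was -0.51 ± 0.28 on the log2 scale for AP against saline mice (limma, adjusted p = 0.194) and -0.92 ± 0.28 in polyI:C + AP against saline mice (adjusted p = 0.0392), the latter short of a fold of 2. With median-of-ratios scaling the latter became -1.34 (adjusted p = 0.0115) and passed, as it did with voom on recovered reads (-1.30, adjusted p = 0.00938), and leaving out any 1 library gave adjusted p between 0.053 and 0.226. The reads behind Cxcl12 were 117 to 246 per library.

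Cxcr4, the signalling receptor of Cxcl12, was at 6.83 and 2.8 TPM in saline, 11.1 and 17.0 TPM in AP and 3.52 and 1.34 TPM in polyI:C + AP mice. Its AP values were above the other 4, with log2 fold changes of 1.53 ± 0.55 against saline mice (limma, adjusted p = 0.0672) and -2.38 ± 0.55 for polyI:C + AP against AP mice (adjusted p = 0.115). Ackr3, which takes up Cxcl12 without G protein signalling, lay between 7.28 and 13.8 TPM in all groups, which overlapped. Fibroblast markers, from cells known to make Cxcl12, summed to 630 to 851 TPM in saline, 797 to 969 TPM in AP and 702 to 829 TPM in polyI:C + AP mice, with 4 of 7, all but Lum collagen genes, called higher in AP mice. Most of the sum in saline mice was Dcn (decorin), which went the other way, at 671 and 540 TPM in saline, 308 and 425 TPM in AP and 503 and 366 TPM in polyI:C + AP mice (-0.73 ± 0.21 in AP against saline mice, adjusted p = 0.0332 in limma, short of a fold of 2). Pdgfra, a fibroblast receptor gene, was at 17.3 and 14.9 TPM in saline and 7.65 and 11.4 TPM in polyI:C + AP mice. It differed by -0.75 ± 0.19 in polyI:C + AP against saline mice (adjusted p = 0.0215 in limma). In AP mice Pdgfra averaged 20.5 ± 0.758 TPM (SD, n = 2), with both libraries above both saline libraries. It was not called there (adjusted p = 0.196 in limma), so it was not lower in both caerulein groups as Cxcl12 was. Endothelial markers summed to 54.9 to 79.1 TPM over the 6 libraries with 0 of 5 called by limma or voom in any of the 3 comparisons and 0 at an unadjusted p under 0.05. Their part in the Cxcl12 values was not tested.

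Cxcl14, a ligand of epithelia and fibroblasts, was at 11.3 and 5.54 TPM in saline mice, 20.8 and 16.8 TPM in AP mice and 14.4 and 7.82 TPM in polyI:C + AP mice. Both AP libraries were above the other 4, and saline and polyI:C + AP libraries overlapped. The difference was 1.19 ± 0.42 on the log2 scale for AP against saline mice (limma, adjusted p = 0.0638) and -0.79 ± 0.42 in polyI:C + AP against AP mice (adjusted p = 0.483). Without the first saline library the former reached 1.67 (adjusted p = 0.0468), which passes, and without the second it was 0.71 (adjusted p = 0.277).

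Cxcl13, the B cell attractant of lymphoid follicles, differed widely between the samples of a group. It was at 11.3 and 0.732 TPM in saline, 4.48 and 41.2 TPM in AP and 38.5 and 13.2 TPM in polyI:C + AP mice, from 19, 1, 11, 128, 116 and 50 reads. The second AP and the first polyI:C + AP library were the highest and the second saline library the lowest. Its log2 fold change in AP against saline mice was 1.92 ± 1.32 (limma, adjusted p = 0.297), and without the second saline library it was 0.29 (adjusted p = 0.907) and without the second AP library 0.38 (adjusted p = 0.899). In polyI:C + AP against AP mice the difference was 0.68 ± 1.32 (adjusted p = 0.879), and its sign turned without the first AP library (-0.85) or the first polyI:C + AP library (-0.07).

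B cell markers were highest in the second AP library but not high in the first polyI:C + AP library. The 5 B cell markers with a row summed to 44.1 TPM in the second AP library and to 2.19 to 14.4 TPM in the other 5, with the B cell receptor gene Cd79b at 19.0 TPM there and 1.30 to 8.00 TPM elsewhere. Cr2, a gene of B cells and follicular dendritic cells, was at 4.97 TPM there and 0.545 to 2.30 TPM elsewhere, and Ltb, the lymphotoxin subunit that organises follicles, at 9.03 TPM and 0.787 to 4.35 TPM. Fcer2a, listed with Cr2 and Ltb, was at 3.07 TPM there and 0.181 to 2.40 TPM elsewhere. Madcam1 and Ccl19 of the same list did not share this, at low levels. Madcam1, a lymphoid vessel adhesion gene, was at 0.782 TPM there and at 1.78 TPM in the second saline library, from at most 6 reads a library. Ccl19 was at 0.364 TPM there and 0.691 TPM in the first AP library, and its reads could not be worked out. The T and NK cell markers summed to 5.41 TPM in the second AP library and 6.02 to 6.67 TPM in saline mice. Cxcr5, the receptor of Cxcl13, had 33 reads in that library and 0 in the other AP library. Mesothelium markers summed to 81.4 TPM in the second AP library and 28.1 to 58.6 TPM elsewhere. Of the 4 markers, Wt1 alone was not highest there, at 1.60 TPM beside 1.85 TPM in the first saline library. In the first polyI:C + AP library, where Cxcl13 was at 38.5 TPM, B cell markers summed to 9.63 TPM and mesothelium markers to 28.1 TPM. The part of B cells and mesothelium in the Cxcl13 values was not tested.

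**Figure D4:**
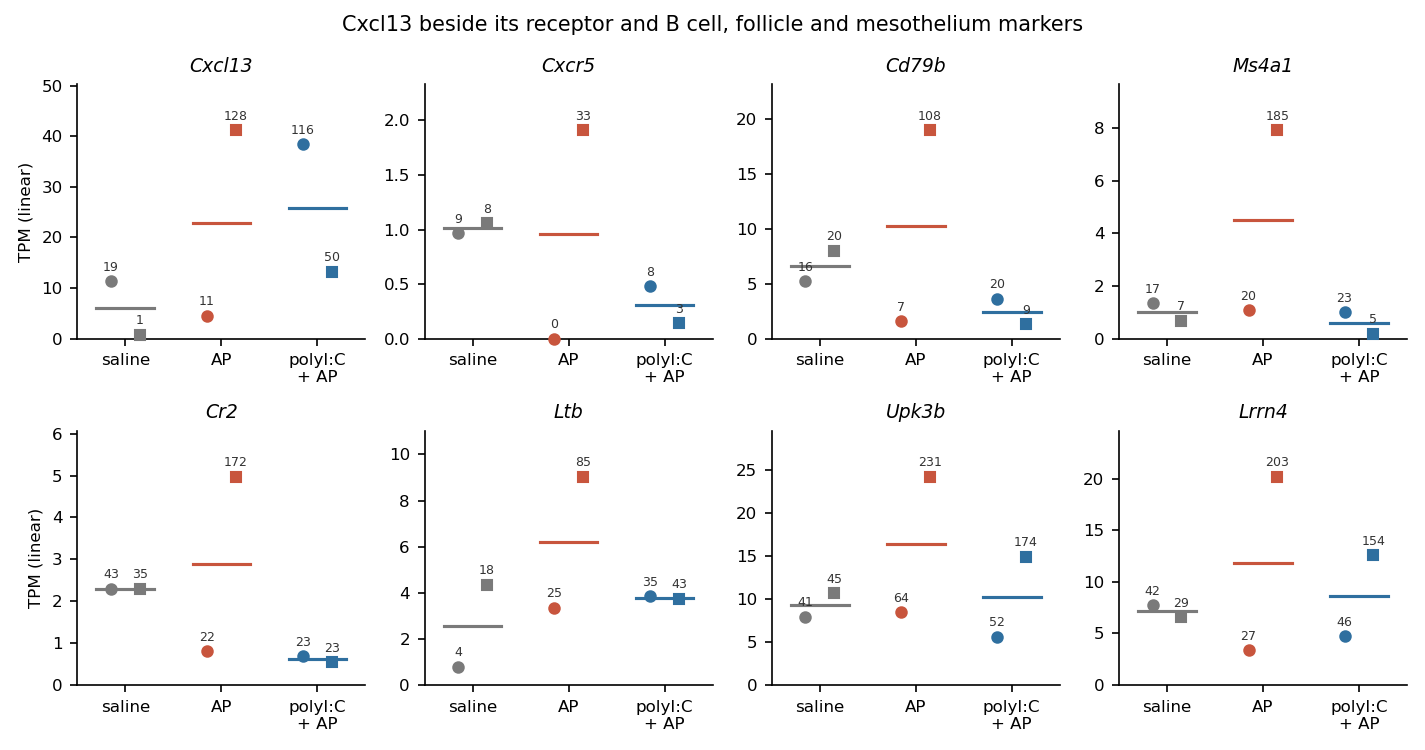
TPM of Cxcl13, its receptor Cxcr5 and markers of B cells (Cd79b, Ms4a1), follicles (Cr2, Ltb) and mesothelium (Upk3b, Lrrn4) in each library, drawn as in the plot of the ligands, with replicate 1 as a circle, replicate 2 as a square, lines for group means and read numbers above the points. Each of the 8 genes drawn is highest in the second AP library, and Cxcl13 alone is also high, at 38.5 TPM, in the first polyI:C + AP library. The mesothelium marker Wt1, not drawn, was highest in the first saline library.

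The 2 membrane-bound ligands behaved differently. Cxcl16, a ligand for Cxcr6 on T and NKT cells and a scavenger receptor for oxidised lipoprotein, was at 3.29 and 2.19 TPM in saline mice, 39.9 and 46.1 TPM in AP mice and 40.5 and 41.9 TPM in polyI:C + AP mice. The 4 caerulein libraries were far above both saline libraries and overlapped among themselves. In AP against saline mice its log2 fold change was 3.76 ± 0.19 (limma, adjusted p = 6.1e-05), from 37 reads in saline and 1048 reads in AP mice, and all 17 alternatives kept the call with values of 3.38 to 4.01. PolyI:C + AP mice differed from AP mice by -0.06 ± 0.19 (adjusted p = 0.937), with a 95% interval of -0.52 to 0.40, and from saline mice by 3.71 ± 0.19 (adjusted p = 6.2e-05). Exons of Cxcl16 overlap Zmynd15 on the opposite strand, which was at 0.272 to 1.51 TPM.

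Cxcr6 did not go with its ligand: it was at 3.42 and 3.10 TPM in saline, 3.94 and 5.06 TPM in AP and 3.11 and 3.27 TPM in polyI:C + AP mice (log2 fold change 0.40 ± 0.39 in AP against saline mice, limma, adjusted p = 0.457). Both cell types known for Cxcl16, macrophages and epithelium, had marker lists that moved. Duct markers summed to 203 to 205 TPM in saline, 1918 to 2000 TPM in AP and 1636 to 1789 TPM in polyI:C + AP mice, with Krt19, Krt7, Cftr and Epcam called higher in each caerulein group against saline mice. Krt19, a keratin of duct cells, went from 51.2 and 62.4 TPM in saline to 1016 and 1041 TPM in AP and 767 and 769 TPM in polyI:C + AP mice. Macrophage markers, at 2288 to 2538 TPM in AP mice, were at 389 to 478 TPM in polyI:C + AP mice, and within the list Lyz2 (lysozyme) was at 203 and 119 TPM there after 1891 and 2118 TPM, while Cd14 (the endotoxin co-receptor) was at 216 and 209 TPM after 218 and 222 TPM. The part of either cell type was not tested.

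Cx3cl1, the fractalkine of endothelium and epithelium, was at 1.76 and 0.772 TPM in saline, 2.57 and 1.43 TPM in AP and 1.26 and 3.78 TPM in polyI:C + AP mice. The groups overlapped in all 3 comparisons, with a log2 fold change of 0.52 ± 0.59 in AP against saline mice (limma, adjusted p = 0.524, 95% interval -0.88 to 1.92) and 0.17 ± 0.59 in polyI:C + AP against AP mice (adjusted p = 0.938, -1.23 to 1.58). Its receptor Cx3cr1, found on monocytes and resident macrophages, was at 2.57 and 3.05 TPM in saline, 4.35 and 5.98 TPM in AP and 0.936 and 0.705 TPM in polyI:C + AP mice. Cx3cr1 fell in polyI:C + AP mice against AP mice (log2 fold change -2.09 ± 0.32, limma, adjusted p = 0.0431) and against saline mice (-1.33 ± 0.32, adjusted p = 0.0174), calls kept by 5 of 16 and 11 of 16 alternatives. limma called no other of the 6 tested receptors, while voom also called Cxcr4 lower against AP mice (-2.73, adjusted p = 0.0254). Against AP mice 3 of 8 macrophage markers were called lower with it and Cd14 differed by -0.05, and against saline mice Csf1r and Lyz2 were called lower and Cd68 and Cd14 higher. The part of macrophages was not tested.

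The sheddases that free Cxcl16 and Cx3cl1 from the membrane were higher in caerulein libraries. Adam17 rose in AP mice, from 12.3 and 14.7 TPM to 31.6 and 33.6 TPM (log2 fold change 1.25 ± 0.12, limma, adjusted p = 5.1e-04), and was at 29.7 and 31.2 TPM in polyI:C + AP mice. Adam10 was at 92.9 and 64.6 TPM in saline, 125 and 128 TPM in AP and 224 and 231 TPM in polyI:C + AP mice, and rose in the last against saline mice (1.55 ± 0.17, adjusted p = 7.3e-04). Dpp4, the protease that trims Cxcl9, Cxcl10 and Cxcl12, was not called (adjusted p = 0.821 in AP against saline mice). Transcript levels say nothing of shed protein.

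**Figure D5:**
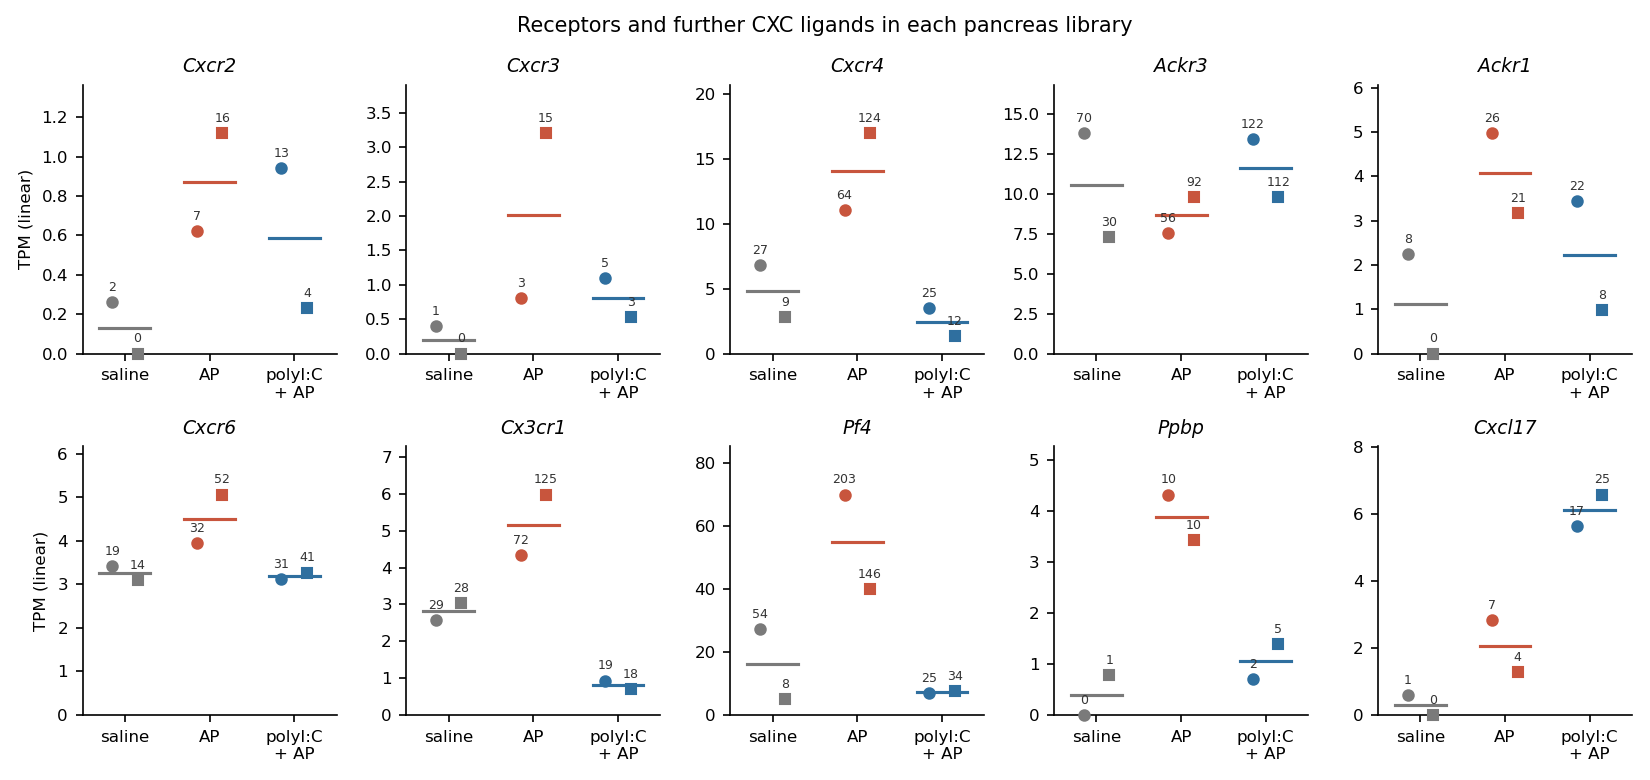
TPM of 7 chemokine receptors and of the ligands Pf4, Ppbp and Cxcl17 in each library, drawn as in the plot of the ligands on linear axes from 0, with read numbers above the points. Cxcr4, Cxcr6, Cx3cr1, Pf4 and Ppbp are highest in both AP libraries, Cxcl17 is highest in polyI:C + AP at 5.63 and 6.58 TPM, and Ackr3 overlaps between groups.

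Among further CXC ligands, Cxcl17, known from mucosal epithelium, had its highest values in polyI:C + AP mice. Cxcl17 was at 0.594 and 0 TPM in saline, 2.84 and 1.28 TPM in AP and 5.63 and 6.58 TPM in polyI:C + AP mice, and rose in the last against saline mice (log2 fold change 3.15 ± 0.73, limma, adjusted p = 0.0148), from 1 and 0 reads in saline and 17 and 25 reads in polyI:C + AP mice. Against AP mice it was not called (1.43 ± 0.73, adjusted p = 0.46). The endothelial scavenging receptor Ackr1 was at 2.24 and 0 TPM in saline, 4.98 and 3.18 TPM in AP and 3.44 and 0.993 TPM in polyI:C + AP mice, uncalled. Cxcl3, Cxcl11, Xcl1 and Cxcr1 were not analysed here.

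The genes most like each ligand across the 6 libraries were sought among 8492 protein-coding genes that averaged 10 TPM or more, by Pearson's r of log2(TPM + 0.5), given as a description since the libraries share groups and depth. For Cxcl16 these were Cldn4, Tmem43 and Tubb5 (each r = 1.000), and 2194 of the candidates had r of at least 0.95. Cldn4, a tight junction claudin, was at 10.2 to 21.1 TPM in saline and 2016 to 2537 TPM in caerulein mice. For Cxcl1 they were Klf6 (0.999), Tbc1d10a (0.998) and Commd2 (0.998), with 1090 candidates at 0.95 or more. Klf6, a zinc finger transcription factor, was at 77.5 and 76.9 TPM in saline, 306 and 370 TPM in AP and 224 and 194 TPM in polyI:C + AP mice, the order seen for Cxcl1.

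The pattern of Cxcl9 was shared by fewer genes, 59 at 0.95 or more, led by Ifi27 (0.997), Tmem205 (0.994) and H2-Q6 (0.991). Ifi27, an interferon-induced mitochondrial gene, was at 134 to 165 TPM in the saline and AP libraries and 282 and 293 TPM in polyI:C + AP mice, and the class Ib MHC gene H2-Q6 at 5.63 to 14.5 TPM and 68.3 and 65.8 TPM. Cxcl14 was closest to Anks1 (0.996), Dusp3 (0.982) and Cgrrf1 (0.976), Cxcl13 to Tm4sf1 (0.982), A730049H05Rik (0.979) and Bola3 (0.966), Cxcl12 to Cep44 (0.963), Cep78 (0.956) and Jmjd8 (0.949), and Cx3cl1 to Atg12 (0.962), Sec24a (0.956) and 2510002D24Rik (0.942). For Cxcl12 and Cx3cl1 no more than 2 candidates each reached 0.95, and for Cxcl13 and Cxcl14 6 and 16. With so few libraries a high r is common, as the count for Cxcl16 shows.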

How the data were processed

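Total RNA of 6 pancreas samples was sequenced, and the labels name a TruSeq Stranded mRNA kit as well as Ribo-Zero depletion. Per the labels and the methods, reads were trimmed with Trimmomatic, mapped to mm10 with STAR and counted with htseq-count (versions not given in the sources used here), and TPM values for each gene were deposited, 1 table a library. Symbols and coordinates came from GENCODE M21 (22490 of 22556 identifiers). Low TPM values times summed exon length fell within 0.1 of whole multiples in 68.9% to 78.2% of cases, against 51.2% to 62.3% with merged exon length and 19.6% to 20.3% with shuffled lengths. Reads, whole within 0.01 for 21697 genes, were estimated from these steps, which adds uncertainty to each read number.

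limma 3.58.1 (R 4.3.3) was run on log2(TPM + 0.5) with 1 coefficient per group over all 6 libraries, for 16814 genes averaging 1 TPM or more and a prior following log2(mean TPM × exon length + 1). Values ± are SE for log2 fold changes and SD for levels. Read ratios used the exact binomial interval (scipy 1.17.1). The fit was tested on simulated data. No label says that the samples of a group are from separate mice, so p-values measure only the spread between these samples, which may be technical. The ligands and lists were chosen with earlier results of these data known. Named were all ligands and receptors, up to 4 genes per other list with the largest change past the threshold (otherwise the 2 most abundant), and the 3 genes most like each ligand; Klrb1c, Nkg7, Elane, S100a8, Ltf, Irf1, Ifit3, Ifnar1, Ifnar2, Ifngr1, Ifngr2, Mx1, Csf1r, Ms4a1, Lrrn4, Madcam1, Ccl19, Dcn, Pdgfra, Adam10 and Dpp4 were added after their values were seen. Wt1 and Fcer2a were also added after their values were seen. Alternatives were other pseudocounts, filters, scaling, priors, voom, a replicate block and leaving out each library.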

Additional observations from a re-analysis of the deposited data

How the results depend on the processing

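Cxcl1 and Cxcl16 passed the threshold in both comparisons with saline mice under each of the 17 alternatives. The call of Cxcl9 in polyI:C + AP against AP mice, the 1 call among the ligands there, became 0 with a pseudocount of 0.1, no filter, a mean of at least 5 TPM (where Cxcl9 was not tested), median-of-ratios scaling, a prior following the mean, a prior without trend, the 2 groups alone, the replicate block, a prior with summed exon length (an alternative chosen after seeing the data) and from 0 to 0 over the left-out libraries. Genes called in that comparison (142) became 90 without the filter, 28 with a prior following the mean, 41 without trend, 69 with the 2 groups alone and 368 with voom, and ranged from 0 to 80 over left-out libraries. The count was 0 without either AP library or the second polyI:C + AP library, with 1421 to 1523 genes at an unadjusted p under 0.05. In AP against saline mice the 3730 calls ranged from 2399 to 3648 over left-out libraries. The cause was not tested. Median-of-ratios scaling moved the median of all genes from 0.45 to 0.06 in AP against saline mice and from 0.48 to 0.06 in polyI:C + AP against saline mice, and the split of higher to lower calls from 3053 and 677 to 1566 and 1220, and from 2838 and 500 to 1325 and 982; with voom it was 1884 and 995, and 1580 and 810, and in polyI:C + AP against AP mice 130 and 238 in place of 74 and 68. Median-of-ratios scaling turned Cxcl14 (-0.03) and Ackr3 (-0.25) in polyI:C + AP against saline mice, where voom also turned Ackr3 (-0.15) and Retnlg (-0.09).

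Over left-out libraries, the log2 fold change in AP against saline mice ranged from -0.06 to 0.65 for Cxcl9 and -0.65 to 0.23 for Ackr3. In polyI:C + AP against AP mice it ranged from -0.85 to 2.21 for Cxcl13, -0.16 to 0.04 for Cxcl16, -0.47 to 0.82 for Cx3cl1 and -0.90 to 0.02 for S100a9. In polyI:C + AP against saline mice it ranged from -0.08 to 0.88 for Cxcl14, -1.83 to 0.51 for Pf4, -0.18 to 2.28 for Ackr1, -0.26 to 0.62 for Ackr3, -0.09 to 0.03 for Cxcr6 and -0.59 to 1.42 for Retnlg. Replicate numbers did not pair the samples: same-numbered deviations correlated at 0.0075, -0.0039 and 0.035 across genes. With the replicate block, Cxcl14 passed in AP against saline mice (1.19, adjusted p = 0.0195 in limma) and Cxcl9 did not against AP mice (adjusted p = 0.0617). For ligands with few reads in a group, a difference within the counting interval cannot be told from counting error.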
